A study of Mus musculus with 9 samples.

Results

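The G1 cyclins and their kinases are described here as 10 mouse genes taken by name from 57010 genes in the table: the D-type cyclins Ccnd1, Ccnd2 and Ccnd3, their kinases Cdk4 and Cdk6, the E-type cyclins Ccne1 and Ccne2 with their kinase Cdk2, the inhibitor Cdkn1b (p27) and the atypical cyclin Ccng2. All 10 were found by symbol and all 10 were among the 13686 genes tested. RNA was sequenced from the livers of male BALB/c mice in 9 libraries, 3 each titled AT3, CPT and CON. Both the AT3 and the CPT group are labelled as cisplatin-induced acute liver injury, and the study's design text says that mice were injected with cisplatin, which crosslinks DNA. The CON group has no treatment. AT3 is not spelled out in the labels. Atractylenolide III, a sesquiterpene lactone of Atractylodes rhizomes, appears in the series title. The sources used here give no dose, route, time or age. Whether the 3 libraries of a group came from separate animals is not stated, and the p-values cover only the spread among libraries, which may be technical. The question put to these genes was how the machinery of G1 differed between cisplatin-injured and untreated liver, and between the AT3 and CPT groups.

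In G1, D-type cyclins bind Cdk4 or Cdk6 and E-type cyclins bind Cdk2, and these kinases phosphorylate the retinoblastoma protein so that E2F factors can switch on genes of S phase entry. The CIP/KIP proteins p21 (Cdkn1a), p27 (Cdkn1b) and p57 (Cdkn1c) bind these complexes: they block cyclin E with Cdk2, and p21 and p27 also help cyclin D to assemble with its kinase. Adult hepatocytes are mostly quiescent, and in the rodent liver Ccnd1 is known for its induction when hepatocytes re-enter the cycle after partial hepatectomy. Cyclin G2 is atypical: it is associated with arrest rather than progression, and in cultured mouse cells its gene is known as a target of FOXO factors.

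Each library held 21485021 to 28480479 estimated counts, so 3 counts equalled 0.105 to 0.140 CPM (counts scaled to library size) and the least abundant members rested on few reads. Mitochondrial genes took 9.79% to 11.4% of counts in AT3, 11.2% to 16.3% in CPT and 25.8% to 36.8% in CON livers. Within CPT, replicate 3 stood apart on the first and the second principal component of all tested genes. On the first, which held 77.0% of the variance, it lay at 52.4, among the AT3 libraries (52.0 to 53.8). CPT replicates 1 and 2 lay at 35.5 and 39.9. Hepatocyte markers dominated every library, with summed CPM of 93034 to 100680 in AT3, 65904 to 82073 in CPT and 81945 to 86462 in CON livers. The makeup of the tissue also moved with the treatment: of 16 sinusoidal endothelial markers 14 were lower in CPT and 14 in AT3 than in CON livers, with summed CPM of 36.6 to 51.7 in AT3, 36.0 to 46.3 in CPT and 207 to 210 in CON. Of 13 stellate cell markers 10 were lower in each, and their sum was 72.6 to 88.5 CPM in AT3, 85.2 to 101 CPM in CPT and 378 to 450 CPM in CON. The lymphocyte sum was 4.76 to 7.09 CPM in AT3, 6.42 to 9.75 CPM in CPT and 19.1 to 20.5 CPM in CON, while the Kupffer cell and macrophage sum was 94.1 to 102 CPM in AT3, 70.9 to 96.0 CPM in CPT and 70.8 to 86.2 CPM in CON, with CPT overlapping both. Most of that sum was Mpeg1, at 54.2 CPM in AT3 and 43.4 CPM in CPT against 17.5 CPM in CON. Of the 14 tested markers 3 were higher and 6 lower than in CON in AT3 as well as in CPT. Clec4f and Timd4 were among the lower ones in both groups and Marco among the higher ones. C1qa and C1qc were called in neither, and Vsig4 was lower in CPT only. Blood cell markers moved as well. Of 9 tested neutrophil markers 8 were higher and none lower than in CON in each cisplatin group by edgeR, with the same counts at an unadjusted p below 0.05, and 3 were lower in AT3 than in CPT. Their sum was 3014 to 3707 CPM in AT3, 3618 to 3968 CPM in CPT and 7.85 to 11.4 CPM in CON. Nearly all of it was Lcn2, which injured hepatocytes also express, at a mean of 3407 CPM in AT3 and 3752 CPM in CPT against 4.86 CPM in CON, while S100a9 averaged 5.06 CPM in AT3 and 15.2 CPM in CPT against 1.74 CPM in CON. Of 6 tested erythroid markers 5 were lower and 1 higher in each, with a sum of 68.8 to 73.5 CPM in AT3, 64.9 to 72.9 CPM in CPT and 809 to 918 CPM in CON. No marker of these lists was at 0 in all 9 libraries. In whole liver, fewer cells of a type and less RNA per cell cannot be told apart.

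Promoter windows are shown for the member with the largest rise (Ccne1), the member called between AT3 and CPT (Ccng2) and the member with the highest level (Cdk4). Each runs from 250 bases before to 50 after the start site in RefSeq's annotation of GRCm38.p6, in the direction of transcription, and 7 of the 10 members matched that table. Capitals mark matches on either strand to the letters searched for E2F (TTTNNCGC), FOXO (GTAAACA), the E-box bound by MYC (CACGTG) or Sp1 (GGGCGG), which are runs of letters and not known sites.
Ccne1 chr7:38107441-38107740 (minus strand): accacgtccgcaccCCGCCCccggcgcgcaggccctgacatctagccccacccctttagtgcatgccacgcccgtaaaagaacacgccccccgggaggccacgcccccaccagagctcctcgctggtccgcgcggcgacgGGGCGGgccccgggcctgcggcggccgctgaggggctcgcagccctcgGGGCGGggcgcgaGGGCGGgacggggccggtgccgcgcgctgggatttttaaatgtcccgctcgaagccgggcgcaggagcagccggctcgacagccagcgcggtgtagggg
Ccng2 chr5:93267323-93267622 (plus strand): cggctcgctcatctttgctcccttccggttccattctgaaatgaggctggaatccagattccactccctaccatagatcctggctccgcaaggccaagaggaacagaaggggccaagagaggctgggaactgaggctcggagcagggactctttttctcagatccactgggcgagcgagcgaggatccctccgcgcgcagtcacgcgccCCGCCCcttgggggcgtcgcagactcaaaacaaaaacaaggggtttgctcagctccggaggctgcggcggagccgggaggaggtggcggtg
Cdk4 chr10:127063285-127063584 (plus strand): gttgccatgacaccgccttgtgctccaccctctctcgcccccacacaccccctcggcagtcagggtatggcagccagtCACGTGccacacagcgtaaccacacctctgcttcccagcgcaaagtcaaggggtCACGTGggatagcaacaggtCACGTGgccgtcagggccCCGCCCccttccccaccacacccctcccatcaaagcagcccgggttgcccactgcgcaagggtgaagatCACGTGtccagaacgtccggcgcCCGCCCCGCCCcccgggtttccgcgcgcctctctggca
The Ccne1 window held 4 Sp1 matches, of which 1 or more stood in 35.7% of all 32851 windows of the same length and 4 or more in 5.49%. The Ccng2 window held 1 Sp1 match and no FOXO match, the FOXO letters standing in 3.65% of all windows. The Cdk4 window held 4 E-boxes, starting at positions -172, -118, -98 and -11 from the start site, where 7.15% of all windows held 1 or more and 0.0244% held 4 or more. It also held 3 Sp1 matches, 2 of them overlapping each other. The E2F letters, found in 5.17% of all windows, were in none of these 3 windows but stood in those of Cdk6 at position -198 and Cdk2 at position -140. A match describes the letters only, and a window without one says nothing about the factor.

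On the per-length scale of TPM (length-scaled abundance), which alone compares genes, the same 3 genes led in every group: Cdk4, then Ccnd3, then Cdkn1b. Cdk4 averaged 19.6 ± 1.4 TPM in AT3, 23.6 ± 2.3 TPM in CPT and 18.1 ± 2.1 TPM in CON livers (SD, n = 3 each). Ccnd3 averaged 17.5 ± 0.6 TPM in AT3, 15.2 ± 2.0 TPM in CPT and 8.19 ± 1.31 TPM in CON, and Cdk4 and Ccnd3 did not overlap between libraries in any group. Cdkn1b averaged 4.97 ± 0.70 TPM in AT3, 4.23 ± 0.45 TPM in CPT and 3.20 ± 0.95 TPM in CON, and in CON its libraries overlapped those of Ccng2. The lower part of the order differed between groups. In CON livers it ran Ccng2, Cdk2, Cdk6, Ccnd1, Ccnd2, Ccne1 and Ccne2, and the neighbours from Ccnd1 down overlapped. In AT3 livers it ran Ccng2, Cdk2, Cdk6, Ccne1, Ccne2, Ccnd2 and Ccnd1, with Ccnd1 at the bottom at 0.250 ± 0.056 TPM, while in CPT livers Ccne1, at 0.677 ± 0.341 TPM, overlapped Cdk6 above it and Ccnd1 below it. Ccne1 thus stood above Ccnd1 in AT3 and CPT and below it in CON, with overlapping libraries in CPT only.

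**Figure D1:**
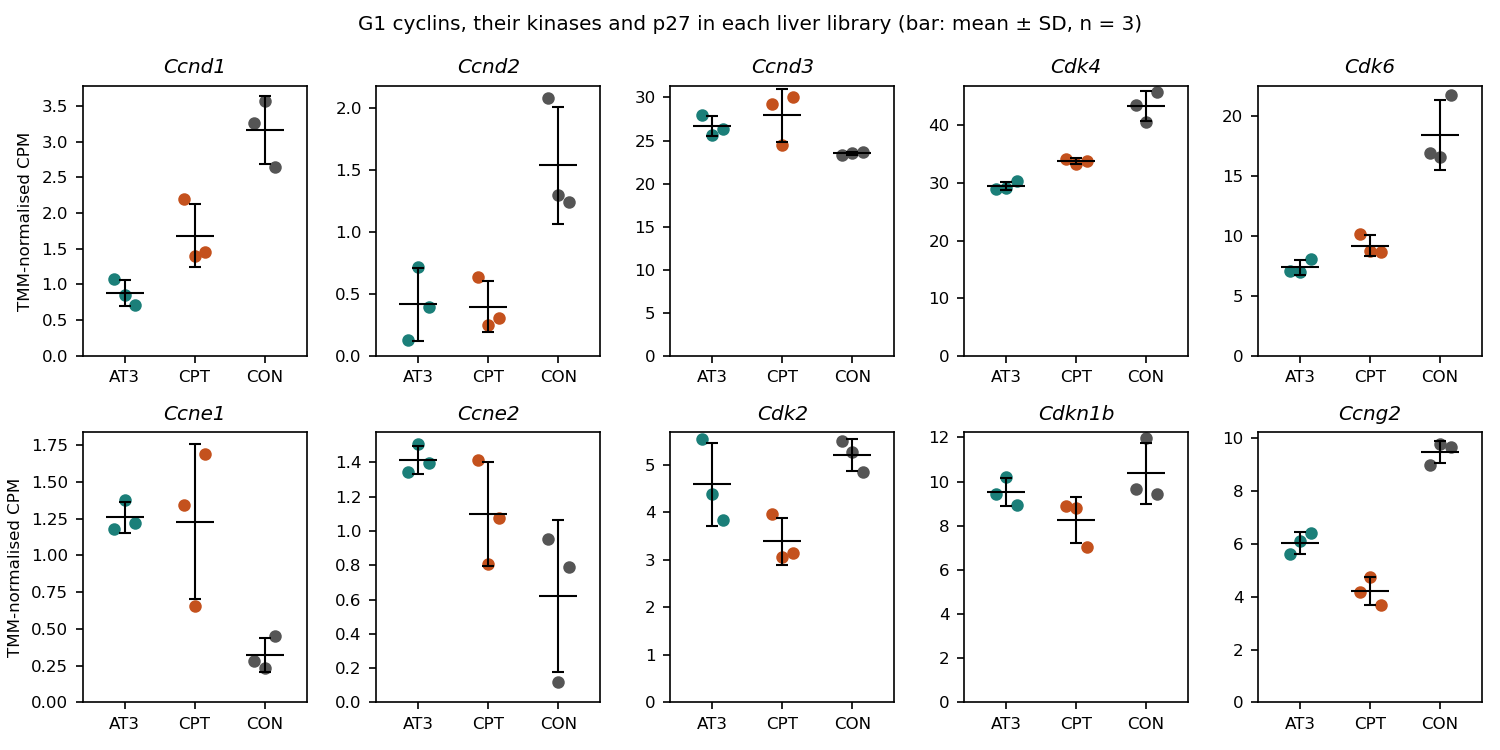
TMM-normalised CPM of each of the 10 genes (vertical axes, each from 0) in the 3 libraries of AT3, CPT and CON livers; points are libraries and bars the mean ± SD. Ccne1 libraries of AT3 and CPT sit above those of CON, Ccng2 and Cdk6 libraries sit below them, and Cdkn1b of AT3 overlaps CON.

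In CPT against CON livers, 2 of the 10 genes were higher (Ccne1 and Ccnd3) and 7 were lower (Ccnd1, Ccnd2, Cdk4, Cdk6, Cdk2, Cdkn1b and Ccng2) by edgeR's quasi-likelihood test at a Benjamini-Hochberg adjusted p below 0.05. Most genes changed in this comparison, so these counts stand beside a background in which 60.8% of all tested genes were called, 30% higher and 30.8% lower. The libraries of CPT and CON did not overlap for 9 of the 10 genes and for 64.2% of all genes. The median log2 fold change was -0.49 over the 10 genes and -0.019 over all genes. Ccnd2 passed the filter on low counts in all 3 CON libraries but in 1 CPT library, and Ccne1 in all 3 CPT libraries but in no CON library, so both entered the test through the group where they were high.

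In AT3 against CON livers, 2 genes were higher (Ccne1 and Ccne2), 5 were lower (Ccnd1, Ccnd2, Cdk4, Cdk6 and Ccng2) and 3 were not called (Ccnd3, Cdk2 and Cdkn1b). Of all genes 64.4% were called, 31.5% higher and 32.9% lower. The 2 groups did not overlap for 8 of the 10 genes, against 70.3% of all genes. The median log2 fold change was -0.37 over the 10 genes and -0.043 over all genes. This comparison shares its CON libraries with that of CPT, so their values are given side by side and not counted as independent.

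In AT3 against CPT livers, 1 of the 10 genes was called, Ccng2, which was higher, and none was called lower. Of all genes 4.68% were called, 2.46% higher and 2.22% lower, and AT3 and CPT were without overlap for 5 of the 10 genes, beside 27% of all genes. At an unadjusted edgeR p below 0.05 there were 2 genes higher (Ccng2 and Cdk2) and 3 lower (Ccnd1, Cdk4 and Cdk6). DESeq2 at an adjusted p below 0.05 called 1 higher and 0 lower, the same counts as edgeR at that threshold. The median log2 fold change was 0.064 over the 10 genes and 0 over all genes. This comparison shares its libraries with the other 2.

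These directions depend on the scale. CON libraries carried the larger mitochondrial shares given above, whose part in this was not tested. Scaling by library totals moved the median log2 fold change of all genes to 0.36 in CPT against CON and 0.34 in AT3 against CON, and log2(TPM + 1) moved it to 0.29 in CPT and 0.32 in AT3 against CON. In CPT against CON the calls over all genes then split into 5944 higher and 2229 lower on library totals and 6631 higher and 1604 lower on TPM, in place of 4107 higher and 4219 lower. In AT3 against CON they split into 5943 higher and 2545 lower on library totals and 7017 higher and 1698 lower on TPM, in place of 4312 higher and 4501 lower. In AT3 against CPT the split was 29 higher and 16 lower on TPM, in place of 337 higher and 304 lower. On TPM, 4 of the 10 genes were called higher and 1 lower in CPT as well as in AT3 against CON. Of the calls against CON, Ccne1 (higher in CPT and in AT3), Ccng2 (lower in CPT) and Ccnd1 (lower in AT3) held under all 15 alternatives, TPM and library totals included.

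**Figure D2:**
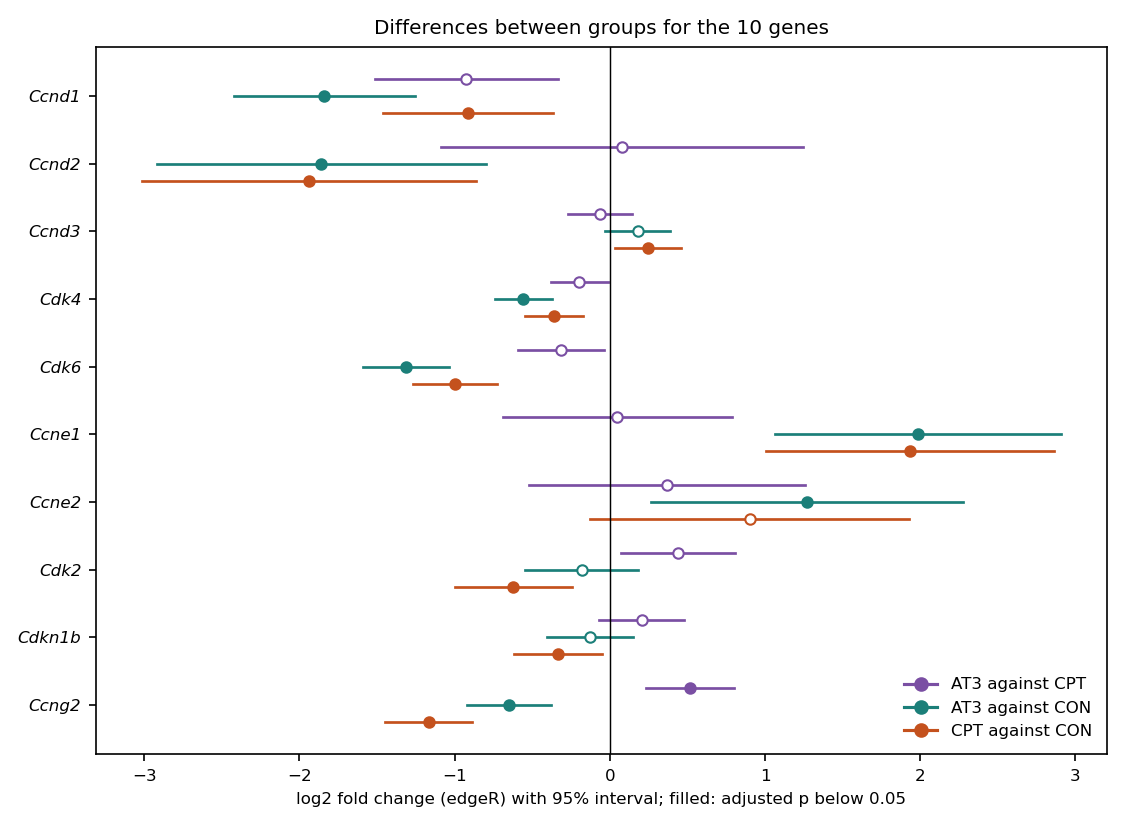
Log2 fold changes from edgeR (horizontal axis, bars are 95% intervals) for the 10 genes in 3 comparisons; filled points have an adjusted p below 0.05. Ccne1 lies near 2 and Ccnd2 near -1.9 against CON in AT3 as well as in CPT, and Ccng2 is the only filled point of AT3 against CPT.

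**Figure D3:**
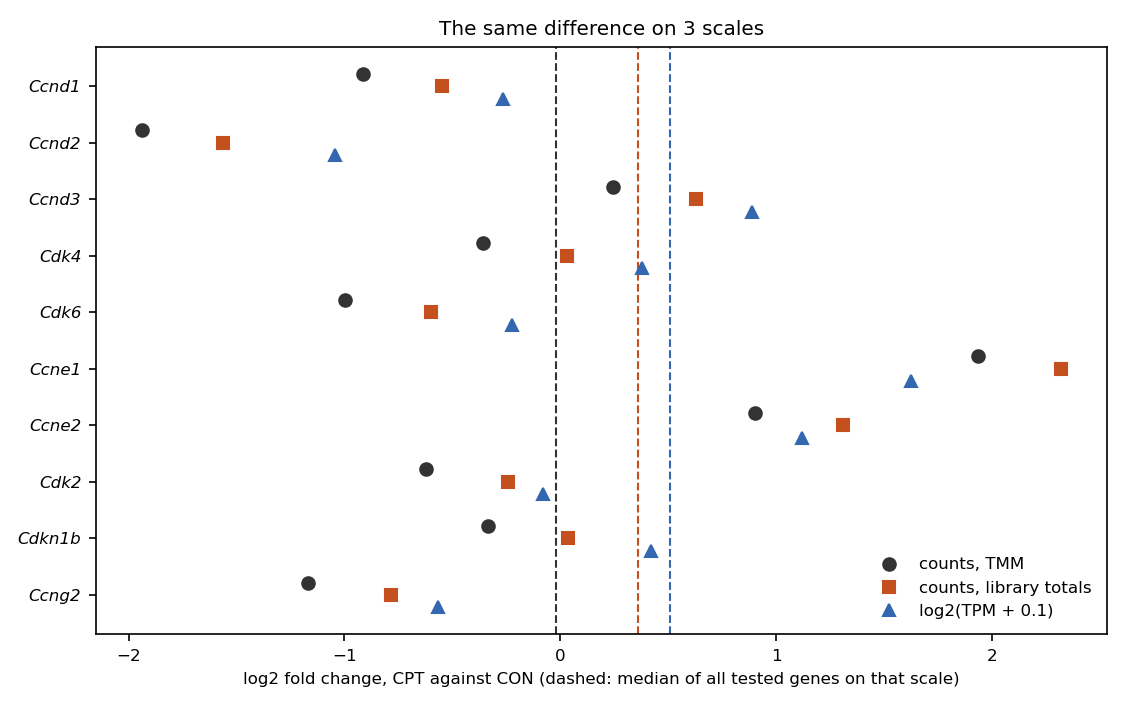
Log2 fold changes of CPT against CON for the 10 genes on 3 scales, TMM-scaled counts, library totals and log2(TPM + 0.1); dashed lines are the medians of all tested genes, at -0.019, 0.36 and 0.51. Cdk4 and Cdkn1b lie below 0 on TMM-scaled counts and above 0 on the other scales, where they stay below the dashed lines.

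Among the D-type cyclins, Ccnd1 (chr7:144929931-144939925, minus strand, GRCm38) was low everywhere and, on TMM-scaled counts, lower after cisplatin. It stood at 1.08, 0.846 and 0.716 CPM in AT3 libraries, at 2.19, 1.40 and 1.46 CPM in CPT and at 3.26, 3.57 and 2.65 CPM in CON. The 3 groups did not overlap, with AT3 lowest and CON highest. Its log2 fold change was -0.91 ± 0.26 (SE) in CPT against CON, with an edgeR adjusted p of 0.00616, and -1.84 ± 0.27 in AT3 against CON, with an edgeR adjusted p of 2.62e-05. On library totals the CPT value was -0.55 with an edgeR adjusted p of 0.115, which was no longer called. Nor was it called on TPM, at -0.11 on log2(TPM + 1) and -0.27 on log2(TPM + 0.1). Expressed relative to the shift of all genes the CPT value was -0.91 on library totals and -0.40 on log2(TPM + 1).

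Ccnd2 (chr6:127125162-127152193, minus strand), a D-type cyclin expressed in many lymphoid and stromal cells, was also low everywhere. It stood at 0.131, 0.721 and 0.394 CPM in AT3, at 0.636, 0.249 and 0.308 CPM in CPT and at 2.08, 1.30 and 1.24 CPM in CON, or 4.14 to 23 estimated counts in AT3, 8 to 17.8 in CPT and 21.8 to 37 in CON. All AT3 and CPT libraries were below all CON libraries, while AT3 and CPT overlapped. Fitted log2 fold changes were -1.94 ± 0.51 in CPT against CON (edgeR adjusted p = 0.00373) and -1.86 ± 0.50 in AT3 against CON (edgeR adjusted p = 0.00412). On TPM neither was called, at -0.24 in CPT and -0.044 in AT3 on log2(TPM + 1), and the length implied by count and TPM ran between 755 and 6967 bases over the libraries, against a deposited length of 6330. The endothelial, stellate and lymphocyte sums given above were lower in the same groups, and their part in the Ccnd2 and Ccnd1 differences was not tested.

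Ccnd3 (chr17:47505051-47599691, plus strand) was the main D-type cyclin transcript and moved the other way. It stood at 27.95, 25.7 and 26.3 CPM in AT3, at 29.2, 24.4 and 30.1 CPM in CPT and at 23.3, 23.6 and 23.6 CPM in CON. All AT3 and CPT libraries were above all CON libraries by a small margin. In log2 terms the difference was 0.25 ± 0.10 in CPT against CON (edgeR adjusted p = 0.0423), and the call was lost when CPT replicate 3 (adjusted p = 0.115) or CON replicate 1, 2 or 3 (0.0941, 0.0836 and 0.0702) was left out. In AT3 against CON it was 0.18 ± 0.10, with an edgeR adjusted p of 0.123. On log2(TPM + 1) it was 0.82 in CPT and 1.02 in AT3 against CON, both called, which is 0.53 above the median of all genes in CPT.

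Cdk4 (chr10:127063534-127067920, plus strand), the more abundant kinase partner of the D-type cyclins, stood at 28.9, 29.2 and 30.3 CPM in AT3, at 34.2, 33.3 and 33.8 CPM in CPT and at 43.6, 40.6 and 45.8 CPM in CON. The 3 groups did not overlap on this scale, with AT3 lowest. Log2 fold changes were -0.36 ± 0.09 in CPT against CON (edgeR adjusted p = 0.00208) and -0.56 ± 0.09 in AT3 against CON (edgeR adjusted p = 4.23e-05). The direction turned with the scale: in CPT against CON it was 0.033 on library totals and 0.36 on log2(TPM + 1), where limma called it higher at an adjusted p of 0.0295. Relative to the median of all genes these were -0.33 and 0.075. Cdk4 overlaps exons of Tspan31 on the opposite strand, which averaged 449 CPM in AT3, 540 CPM in CPT and 349 CPM in CON and rose by 0.63 on the log2 scale in CPT against CON (edgeR adjusted p = 0.000173). The sources used here do not say whether counting used the strand, so reads of the overlap cannot be told apart.

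Cdk6 (chr5:3341485-3531008, plus strand), the other kinase of the D-type cyclins, stood at 7.12, 6.99 and 8.13 CPM in AT3, at 10.2, 8.75 and 8.69 CPM in CPT and at 16.9, 16.6 and 21.8 CPM in CON. Both cisplatin groups were below every CON library, and AT3 was below CPT without overlap. For Cdk6 the log2 fold change was -0.998 ± 0.13 in CPT against CON (edgeR adjusted p = 6.45e-06) and -1.31 ± 0.13 in AT3 against CON (edgeR adjusted p = 3.15e-07). On library totals it remained called at -0.60 in CPT against CON, and on log2(TPM + 1) it was -0.12 and not called, or -0.41 relative to the median of all genes. Cdk6 spans 189.5 kb, the longest of the 10, where tested genes of 100 to 300 kb had a median log2 fold change of -0.40 in CPT against CON. The endothelial, stellate and lymphocyte sums were lower in the same groups, and their part in the Cdk6 difference was not tested.

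Among the E-type cyclins, Ccne1 (chr7:38097984-38107534, minus strand) gave the largest rise of the 10. It stood at 1.18, 1.38 and 1.22 CPM in AT3 and at 1.34, 0.654 and 1.69 CPM in CPT, against 0.281, 0.236 and 0.450 CPM in CON. In estimated counts these were 34 to 44 in AT3, 21 to 44 in CPT and 5 to 8 in CON, with no overlap between either cisplatin group and CON. The log2 fold change was 1.94 ± 0.44 in CPT against CON (edgeR adjusted p = 0.00127) and 1.99 ± 0.43 in AT3 against CON (edgeR adjusted p = 0.000877). It was called under all 15 alternatives in each comparison, between 0.53 and 2.32 in CPT and between 0.56 and 2.37 in AT3, the lowest on log2(TPM + 1).

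Ccne2 (chr4:11191351-11204779, plus strand), the second E-type cyclin, stood at 1.35, 1.504 and 1.40 CPM in AT3, at 1.41, 0.810 and 1.08 CPM in CPT and at 0.955, 0.118 and 0.788 CPM in CON. AT3 lay above every CON library, while CPT overlapped CON, whose replicate 2 held 3.13 estimated counts. Ccne2 had a log2 fold change of 1.27 ± 0.47 in AT3 against CON (edgeR adjusted p = 0.0279) and 0.90 ± 0.48 in CPT against CON (edgeR adjusted p = 0.119). The AT3 call was lost without AT3 replicate 2 (adjusted p = 0.0641), AT3 replicate 3 (0.0531) or CON replicate 2, where the log2 fold change was 0.70 (adjusted p = 0.102). The CPT value was called in 5 of 15 alternatives: without CON replicate 1 (adjusted p = 0.0457), without the filter on low counts (0.0340), on library totals (0.0182), on log2(TPM + 1) (0.00719) and on log2(TPM + 0.1) (0.00825).

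Cdk2 (chr10:128697939-128705031, minus strand), the kinase of the E-type cyclins, moved against Ccne1 in the CPT group. It stood at 5.54, 4.39 and 3.83 CPM in AT3, at 3.96, 3.05 and 3.15 CPM in CPT and at 5.51, 5.26 and 4.84 CPM in CON. CPT lay below every CON library, and AT3 overlapped both. The log2 fold change was -0.62 ± 0.18 in CPT against CON (edgeR adjusted p = 0.00654), which was -0.24 on library totals (adjusted p = 0.336) and thus no longer called. In AT3 against CON it was -0.18 ± 0.17 (edgeR adjusted p = 0.369), with a positive sign on library totals and on TPM.

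Cdkn1b (chr6:134920401-134925513, plus strand), the p27 gene, differed little. It stood at 9.45, 10.2 and 8.95 CPM in AT3, at 8.90, 8.81 and 7.04 CPM in CPT and at 9.67, 12.0 and 9.46 CPM in CON. CPT lay just below CON without overlap, and AT3 overlapped CON. The log2 fold change was -0.33 ± 0.13 in CPT against CON (edgeR adjusted p = 0.0391), a call lost in 11 of 15 alternatives, DESeq2 among them (adjusted p = 0.129). It was lost without CPT replicate 1 (adjusted p = 0.0612), CPT replicate 2 (0.0501), CPT replicate 3 (log2 fold change -0.22) or CON replicate 2 (-0.21). The sign turned on library totals (0.038) and on log2(TPM + 1) (0.33), and in AT3 against CON the value was -0.13 on TMM-scaled counts and 0.52 on log2(TPM + 1), where limma called it higher (adjusted p = 0.0184).

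The sister gene Cdkn1a (p21), a p53 target, set the balance of the CIP/KIP family. It averaged 329 ± 15 CPM in AT3 and 266 ± 60 CPM in CPT, against 10.3 ± 2.1 CPM in CON livers (SD, n = 3 each), a log2 fold change of 4.99 in AT3 and 4.68 in CPT against CON with edgeR adjusted p of 5.94e-12 and 1.11e-11. Cdkn1b therefore made up 2.48%, 2.92% and 2.24% of the summed TPM of Cdkn1a, Cdkn1b and Cdkn1c in AT3 libraries and 3.64%, 3.24% and 1.99% in CPT libraries, against 35.6%, 40.0% and 44.7% in CON libraries. Cdkn1c (p57) averaged 1.07 ± 0.17 CPM in AT3 and 1.95 ± 0.34 CPM in CON and was lower in AT3 (edgeR adjusted p = 0.0181), a call lost on library totals (adjusted p = 0.193) and on log2(TPM + 1) (0.293).

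On TMM-scaled counts, Ccng2 (chr5:93267257-93276231, plus strand) was lower than CON in both cisplatin groups and higher in AT3 than in CPT. It stood at 5.61, 6.11 and 6.41 CPM in AT3, at 4.17, 4.76 and 3.69 CPM in CPT and at 8.99, 9.77 and 9.68 CPM in CON. The 3 groups did not overlap, with AT3 in between. The log2 fold change was -1.17 ± 0.13 in CPT against CON (edgeR adjusted p = 1.79e-06), -0.65 ± 0.13 in AT3 against CON (edgeR adjusted p = 0.000353) and 0.52 ± 0.13 in AT3 against CPT (edgeR adjusted p = 0.0376). The last call was lost in 10 of 15 alternatives with the sign kept, and the value ran between 0.39 and 0.62. It was lost without CPT replicate 1 or 3 (adjusted p = 0.0910 and 0.0605) and without AT3 replicate 1, 2 or 3 (0.0854, 0.123 and 0.143). In AT3 against CON the Ccng2 call was lost on library totals (-0.27), on log2(TPM + 1) (-0.0087) and on log2(TPM + 0.1) (-0.0068). Its relative Ccng1, a p53 target, moved the opposite way against CON, at 163 ± 7 CPM in AT3 and 177 ± 10 CPM in CPT, against 12.3 ± 1.1 CPM in CON (SD, n = 3 each), with log2 fold changes of 3.72 and 3.84 at edgeR adjusted p of 7.43e-13 and 4.91e-13.

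Between AT3 and CPT, the remaining members differed by amounts that did not pass the test. Ccnd1 was lower in all 3 AT3 libraries than in every CPT library, with a log2 fold change of -0.93 (95% interval -1.52 to -0.33, edgeR adjusted p = 0.0703). It was called when the filter on low counts was dropped (adjusted p = 0.0352) or CPT replicate 3 was left out (0.0494). Cdk2 gave 0.44 (0.074 to 0.81, adjusted p = 0.158) and Cdk6 gave -0.32 (-0.59 to -0.038, adjusted p = 0.183). Cdk4 gave -0.20 (-0.38 to -0.014, adjusted p = 0.208). The intervals were wide for the least abundant genes: Ccnd2 gave 0.079 (-1.09 to 1.25), Ccne1 0.049 (-0.69 to 0.79) and Ccne2 0.37 (-0.52 to 1.26). Ccnd3, with its higher counts, gave -0.066 (-0.27 to 0.14), and Cdkn1b gave 0.21 (-0.069 to 0.48).

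Ratios of counts taken within a library do not depend on the scaling between libraries, and are given as a description. Cdk4 counts were 4.06, 4.17 and 3.73 times those of Cdk6 in AT3 and 3.35, 3.80 and 3.89 times in CPT, against 2.58, 2.44 and 2.10 times in CON libraries. On counts, the cisplatin groups thus held more Cdk4 for each Cdk6 count than any CON library. On TPM, the share of Cdk4 in the sum of Cdk4 and Cdk6 overlapped between AT3 and CON. It was 95.37% in AT3 replicate 1 and 95.47% in CON replicate 1. The CPT libraries, the lowest at 96.42%, lay above every CON library on TPM too. The part of the Tspan31 overlap given above in the Cdk4 to Cdk6 count ratio was not tested. Ccnd3 counts were 25.8, 30.3 and 36.8 times those of Ccnd1 in AT3 and 13.3, 17.4 and 20.6 times in CPT, against 7.16, 6.60 and 8.94 times in CON, with no overlap between the 3 groups. Ccnd1 made up 1.39% ± 0.29 of the summed TPM of the 3 D-type cyclins in AT3 and 2.79% ± 0.59 in CPT, against 6.04% ± 0.81 in CON, and Ccnd3 made up 97.1% ± 1.1 in AT3 and 96.6% ± 1.1 in CPT, against 90.8% ± 1.7 in CON (SD, n = 3 each). The ratio of Ccne1 to Cdk2 counts was 0.213, 0.314 and 0.318 in AT3 and 0.339, 0.214 and 0.537 in CPT, against 0.0510, 0.0448 and 0.0930 in CON. Every library of the cisplatin groups exceeded every CON library in this ratio. Ccng1 counts were 28.3, 27.9 and 24.8 times those of Ccng2 in AT3 and 39.6, 38.4 and 49.2 times in CPT, against 1.35, 1.38 and 1.16 times in CON.

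**Figure D4:**
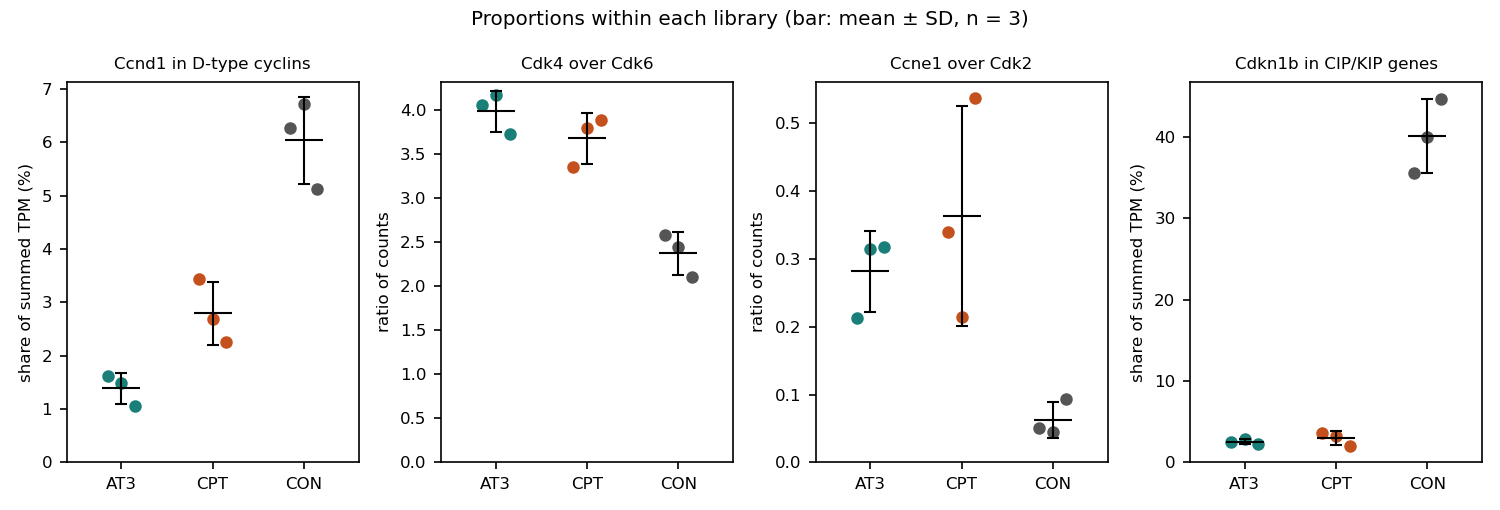
Proportions taken within each library: the share of Ccnd1 in the summed TPM of the D-type cyclins, the count ratios Cdk4 over Cdk6 and Ccne1 over Cdk2, and the share of Cdkn1b in the summed TPM of Cdkn1a, Cdkn1b and Cdkn1c, for AT3, CPT and CON (points are libraries, bars mean ± SD, axes from 0). In each panel the AT3 and CPT points lie on one side of all CON points.

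Around the 10 genes, lists of the pathway were counted in the same fit, beside all genes at 31.5% higher and 32.9% lower in AT3 against CON and 30% higher and 30.8% lower in CPT against CON. Of 18 tested p53 arrest genes, 16 were higher and 2 lower against CON in AT3 as well as in CPT, and the genes that were lower were Mdm4, which restrains p53, and Trp53 itself. The 16 calls stood on library totals and on log2(TPM + 1) too, while the lower ones did not, at 0 on each of these scales. Btg2, an antiproliferative p53 target, averaged 124 CPM in AT3 and 97.2 CPM in CPT, against 0.917 CPM in CON, and Phlda3, an AKT inhibitor, averaged 42.4 CPM in AT3 and 58.8 CPM in CPT, against 0.755 CPM in CON. Median log2 fold changes of the list were 1.88 in AT3 and 1.89 in CPT, against -0.043 in AT3 and -0.019 in CPT over all genes. In AT3 against CPT, Tob1 and Btg1 were called higher and Gadd45g and Phlda3 lower, 2 of 18 each way. The shares of all genes there were 2.46% higher and 2.22% lower. On library totals 1 of the list was higher and 1 lower, and on log2(TPM + 1) 1 was higher and 0 lower. Of 4 tested inhibitors Cdkn1a and Cdkn2c (p18) were higher in AT3 and in CPT than in CON, Cdkn2c averaging 5.56 CPM in AT3 and 4.55 CPM in CPT, against 1.54 CPM in CON. Of 6 tested CDK-activating, CDC25 and WEE1 genes 5 were higher and none lower in each, by edgeR at an unadjusted p below 0.05 as well as by DESeq2. They included Mnat1, a subunit of the CDK-activating kinase, at 3.15 CPM in AT3 and 2.61 CPM in CPT against 0.972 CPM in CON. Wee1, which inhibits CDKs, was at 2.33 CPM in AT3 against 0.933 CPM in CON. The phosphatase gene Cdc25a was at 3.255 CPM in CPT against 1.23 CPM in CON (edgeR adjusted p = 0.000347).

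The list of ubiquitin ligases of G1 regulators and related genes had 12 of 21 higher and 6 lower in AT3 against CON. In CPT against CON it had 11 higher and 5 lower. The lower counts are no larger a share than the 32.9% and 30.8% of all genes. Fbxo31, which directs cyclin D1 for degradation after DNA damage in human cells, averaged 90.9 ± 4.3 CPM in AT3 and 83.1 ± 9.5 CPM in CPT, against 16.1 ± 1.6 CPM in CON (SD, n = 3 each). Its log2 fold change was 2.50 in AT3 and 2.37 in CPT against CON, at edgeR adjusted p of 6.60e-11 and 1.23e-10. Usp2, a deubiquitinase and not a ligase, averaged 10.7 CPM in AT3 and 9.42 CPM in CPT, against 2.68 CPM in CON. Both Usp2 differences were called higher, at edgeR adjusted p of 3.58e-07 and 1.42e-06. Skp2, which directs p27 for degradation, averaged 0.913 CPM in AT3 and 0.899 CPM in CPT, against 1.81 CPM in CON, and Fbxw7, which does so for cyclin E, averaged 4.66 CPM in AT3 and 5.33 CPM in CPT, against 9.94 CPM in CON. All 4 of these Skp2 and Fbxw7 differences were called lower, with edgeR adjusted p between 7.06e-06 and 0.0281. On log2(TPM + 1) the list had 13 higher and 2 lower in AT3, and 13 higher and 0 lower in CPT. Skp2 was not called on that scale or on library totals in either group, and Fbxw7 was not called on it in CPT.

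Downstream, of 23 tested E2F targets of S phase entry 8 were higher and 6 lower in AT3 against CON, and 5 were higher and 5 lower in CPT against CON. Apart from the 8, which are near the 31.5% of all genes, these are smaller shares than the 32.9% lower in AT3 and the 30% higher and 30.8% lower in CPT over all genes. Pcna, the DNA polymerase clamp and also a p53 target, averaged 14.4 CPM in AT3 and 11.5 CPM in CPT, against 5.05 CPM in CON. Gmnn, an inhibitor of replication licensing, averaged 6.21 CPM in AT3 and 4.39 CPM in CPT, against 2.15 CPM in CON, while Mcm2, a subunit of the replicative helicase, averaged 0.773 CPM in AT3 and 1.05 CPM in CPT, against 3.11 CPM in CON. In the RB and E2F family 4 of 16 were higher and 6 lower in AT3 against CON, and 1 was higher and 6 lower in CPT against CON. On log2(TPM + 1) the S phase list had 12 higher and 5 lower in AT3 and 11 higher and 4 lower in CPT, and the RB and E2F family 6 higher and 2 lower in AT3 and 4 higher and 2 lower in CPT. E2f8, an atypical repressor, averaged 1.53 CPM in AT3 and 2.16 CPM in CPT, against 5.81 CPM in CON. Of 24 G2 and mitosis genes only 7 had enough counts to be tested, and none was called by edgeR in any of the 3 comparisons. At an unadjusted p below 0.05, 1 of them was lower in AT3 against CPT and none differed against CON, and DESeq2 called 1 lower in CPT against CON. With limma on log2(TPM + 1), 2 were higher in AT3 and 3 in CPT against CON. Mki67 held 2, 2 and 1 counts in AT3, 4, 1 and 0 in CPT and 0, 0 and 5 in CON libraries, and Ccnb1 held at most 2 in any library, so differences in them were not detectable at this depth. Ccna2 and Cdk1, tested at mean levels between 0.359 and 0.889 CPM, were not called in any comparison.

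Among mitogen inputs to cyclin D, 6 of 22 were higher and 7 lower against CON in AT3 as well as in CPT, close to the shares of all genes (31.5% higher and 32.9% lower in AT3, 30% and 30.8% in CPT), and on log2(TPM + 1) 15 were higher and 3 lower in AT3 and 10 higher and 2 lower in CPT. Fos and Jun, subunits of AP-1, were higher: Jun averaged 15.6 CPM in AT3 and 15.3 CPM in CPT, against 4.80 CPM in CON. Ccn1, a matricellular target of YAP, averaged 1.95 CPM in AT3 and 2.12 CPM in CPT, against 13.0 CPM in CON, and Lgr5, a WNT target of pericentral hepatocytes, averaged 0.792 CPM in AT3 and 0.769 CPM in CPT, against 3.98 CPM in CON. Myc averaged 2.23 ± 0.50 CPM in AT3, 1.22 ± 0.06 CPM in CPT and 2.14 ± 0.61 CPM in CON. It was lower in CPT than in CON (log2 fold change -0.79, edgeR adjusted p = 0.0238) and was not called in AT3 against CPT (0.86, adjusted p = 0.0818) or against CON (0.077, adjusted p = 0.810). On log2(TPM + 1) Myc was not called in CPT against CON (-0.024) and was called higher in AT3 against CON (0.43, limma adjusted p = 0.00456), and on library totals it was called in neither.

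Of 21 tested FOXO factors and targets, 7 were higher and 1 lower in AT3 against CPT, beside the 2.46% and 2.22% of all genes called. The higher ones were Foxo1 itself, Irs2, Igfbp1, G6pc, Pdk4, Bcl2l11 and Klf15, and the lower one was Gadd45a. Igfbp1, a liver-secreted binding protein of insulin-like growth factors, stood at 257, 249 and 258 CPM in AT3, against 68.0, 82.3 and 198 CPM in CPT, whose replicate 3 was the high one. Its mean in CON was 12.1 CPM, so AT3 lay further from CON than CPT did. G6pc averaged 47.3 CPM in AT3 and 23.4 CPM in CPT, against 186 CPM in CON. Igfbp1 was thus above CON and G6pc below it in both cisplatin groups. Pdk4, which restrains pyruvate oxidation, averaged 4.10 ± 0.98 CPM in AT3 and 1.82 ± 0.45 CPM in CPT (SD, n = 3 each). Gadd45a, a growth arrest gene that p53 also induces, averaged 5.86 ± 1.12 CPM in AT3 and 9.40 ± 2.38 CPM in CPT, against 0.895 CPM in CON. The number called higher was 2 without AT3 replicate 1, 3 without AT3 replicate 2, 4 without AT3 replicate 3 or CPT replicate 2, 8 without CPT replicate 3, 5 on library totals and 0 on log2(TPM + 1). Gadd45a was not called on either of these scales (adjusted p = 0.102 and 0.265). Against CON, 8 were higher and 5 lower in AT3, and 7 were higher and 8 lower in CPT, beside 31.5% and 32.9% of all genes in AT3 and 30% and 30.8% in CPT. Tested on log2(TPM + 1), these were 11 higher and 2 lower in AT3, and 10 higher and 3 lower in CPT. Other cyclins had 7 of 15 higher and 5 lower in AT3 against CON, and 4 higher and 5 lower in CPT against CON. Other cyclin-dependent kinases had 3 of 16 higher and 5 lower in AT3, and 4 higher and 4 lower in CPT. Read against the same shares of all genes, the 7 other cyclins higher in AT3 are above the 31.5% and the other counts are near or below theirs. By log2(TPM + 1) the balance moved: other cyclins had 10 higher and 1 lower in AT3 and 9 higher and 0 lower in CPT, and other kinases 8 higher and 1 lower in AT3 and 7 higher and 0 lower in CPT.

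**Figure D5:**
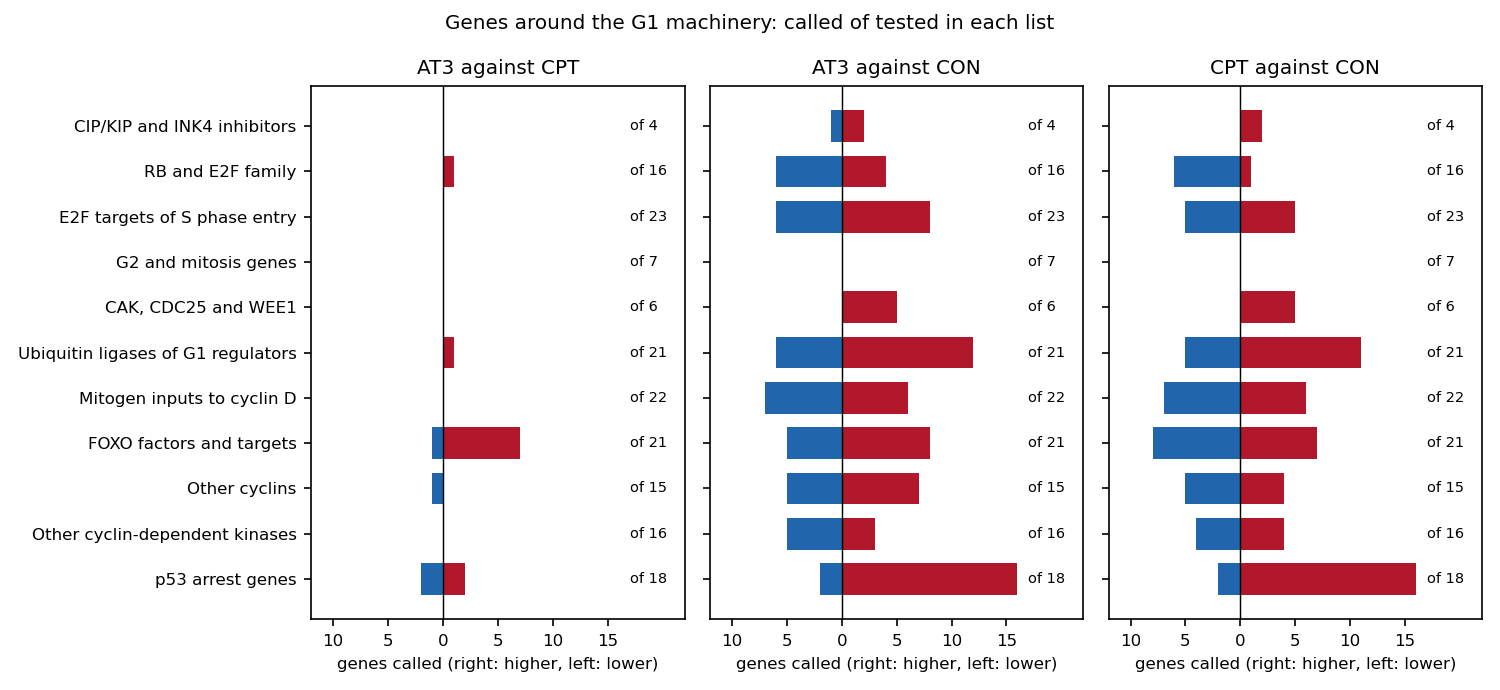
Number of genes called higher (right of 0) and lower (left of 0) in 11 lists around the G1 machinery for AT3 against CPT, AT3 against CON and CPT against CON, with the number tested beside each bar. The p53 arrest list has 16 genes higher against CON in AT3 as well as in CPT. In AT3 against CPT, the FOXO list has 7 higher and 1 lower, and the p53 arrest list 2 higher and 2 lower.

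Genes whose pattern over the 9 libraries was nearest to Ccnd1, Ccng2 and Cdk6 were found by the root mean square difference of mean-centred log2 CPM. Ccnd1 was nearest to Guca1a (0.167), Gm44044 (0.186) and Stoml1 (0.204), where Ccnd1 itself varied by 0.756 about its mean. Ccng2, varying by 0.487, was nearest to Tars (0.096), Slc40a1 (0.107) and Ypel2 (0.109). Cdk6, varying by 0.569, was nearest to Aagab (0.076), Srek1ip1 (0.076) and Gnas (0.079). The 3 groups set most of this variation, so the likeness describes the order of the groups.

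Several members share bases with a gene on the opposite strand, whose values bear on reads that cannot be assigned by strand. LTO1, overlapping exons of Ccnd1, averaged 4.50 CPM in AT3, 6.58 CPM in CPT and 8.96 CPM in CON and was lower in AT3 than in CPT (log2 fold change -0.55, edgeR adjusted p = 0.0399). Bysl, overlapping Ccnd3, was higher in CPT than in CON (0.31, adjusted p = 0.0312), the direction of Ccnd3. Ints8, overlapping Ccne2, was not called in any comparison, and Pmel, overlapping Cdk2, held 24 counts summed over the 9 libraries. Ccnd1, Ccnd3, Ccne2 and Cdk4 had fractional estimated counts in all 9 libraries, while Ccne1, Ccng2, Cdk2 and Cdkn1b had whole numbers in all 9. The part of these overlaps in the differences above was not tested.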

How the data were processed

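RNA-seq values of 9 liver libraries were used, 3 each of AT3, CPT and CON, grouped by their titles. The deposited expected counts (estimated counts) and TPM per gene are as the authors made them. Of all gene values of a library, zeros included, 7.96% to 9.55% were not whole. No program is named in the sources used here. Genome builds listed in the submitters' processing notes, without a role, are GRCm38, mm10 and GRCm39. Per the labels' protocols, libraries came from 1.3 ug of total RNA with a SMARTer kit; strand is not stated. Estimated counts were rounded, genes with low counts removed (filterByExpr, floor 0.376 CPM), libraries scaled by TMM and 13686 genes fitted over all 9 libraries with edgeR 4.0.16 (R 4.3.3), quasi-likelihood test, Benjamini-Hochberg adjustment over all genes, threshold 0.05. CPM were computed from these scaled counts. DESeq2 1.42.0 and limma 3.58.1 on log2(TPM + pseudocount 1 or 0.1) were alternatives. The fit was tested on simulated data, once per comparison, with 66 or 67 genes changed at each fold among 13128 to 13173 fitted. It recovered 31.3% to 37.3% of 1.5-fold, 68.7% to 77.6% of 2-fold and 95.5% to 98.5% of 4-fold changes. Far more genes were called in the data, 60.8% in CPT and 64.4% in AT3 against CON. The adjusted threshold was thus stricter in the simulation, and these rates do not measure the power against CON. A smaller difference that was not called may still have been missed. The members and the gene lists were chosen with earlier results of these data known. The genes named are the 10 members, Cdkn1a, Ccng1, Ccna2, Ccnb1, Cdk1, Myc and Mki67, up to 2 called genes in each direction per list and comparison with the largest log2 fold change, a mean of at least 1 CPM in 1 group and no overlap, and the 3 genes nearest to Ccnd1, Ccng2 and Cdk6. The other FOXO list members, cell markers and overlapping genes were named after their values were seen. Coordinates are from GENCODE M21 (GRCm38). Replicate pairs differed by more than counting noise in every group, so none was merged. The floor of 3 counts covers counting error only.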

Additional observations from a re-analysis of the deposited data

How the results depend on the processing

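Each result was recomputed under 15 alternatives per comparison. Of 450 member values, 371 kept direction and side of the threshold. On log2(TPM + 1) and log2(TPM + 0.1) alike, 5 members were called in CPT against CON (4 higher, 1 lower), 0 in AT3 against CPT, and 4 higher with 1 lower in AT3 against CON. With library totals, 3 were lower in CPT and 3 in AT3 against CON, and 0 were called in AT3 against CPT. With only the 6 libraries compared, 1 was higher in CPT against CON and 0 were called in AT3 against CPT. Without the filter, 2 were called in AT3 against CPT, 1 of them lower. The replicate numbers did not pair the libraries (same-numbered correlations between -0.038 and 0.076), and with the replicate block 1 member was higher in CPT against CON, 0 were called in AT3 against CPT, and 451 genes in place of 641. Leaving out 1 library gave 1 to 2 members higher in CPT against CON, 0 to 1 called and 0 to 1 higher or lower in AT3 against CPT, and 1 to 2 higher in AT3 against CON.

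Genes called in AT3 against CPT numbered 641, but 186 with library totals, 1174 without the filter, 45 on log2(TPM + 1), 32 on log2(TPM + 0.1) and 172 to 1316 with 1 library left out, the most without CPT replicate 3. Signs turned with the scale. Cdk4 in CPT against CON was 0.033 on library totals, 0.36 on log2(TPM + 1) and 0.38 on log2(TPM + 0.1), and Cdkn1b was 0.038, 0.33 and 0.42. In AT3 against CON, Cdk4 was 0.11 and 0.12 on the TPM scales, Cdk2 was 0.20, 0.27 and 0.41 on library totals and the TPM scales, and Cdkn1b was 0.24, 0.52 and 0.65, and with 1 library left out ran from -0.18 to 0.0002. In AT3 against CPT, Ccnd3 was 0.20 and 0.21 on the TPM scales, and with 1 library left out Ccnd2 ran from -0.60 to 0.59 and Ccne1 from -0.26 to 0.35. The cause of these shifts was not tested. Low counts limit Ccnd2, Ccne1 and Ccne2.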
